A study of Mus musculus with 4 samples.

Results

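The genes described are 32 glycolysis and hypoxia genes, taken by symbol from the 32285 genes of each count matrix: 21 enzymes, transporters and regulators of glycolysis, and 11 genes known as targets of the hypoxia response. All 32 symbols were found, in 33 rows, because Aldoa has a pair of rows; the one with nearly all counts was used, and the other held 7 and 9 UMIs in the sgArid1a libraries and 7 and 5 in the sgScr libraries. The cells were CD8+ T cells, sorted as viable CD45+ CD3+ CD8+ cells from B16F10 melanomas growing in C57BL/6J mice aged 6 to 8 weeks, and were read by droplet single-cell RNA sequencing of 5-prime ends. The sgArid1a group (2 libraries) had a guide RNA against Arid1a, which encodes a DNA-binding part of SWI/SNF chromatin remodellers, and the sgScr group (2 libraries) had a control guide; the labels do not say which cells carried the guides, and all mice bore tumours. Nothing in the labels says that the libraries of a group came from separate animals, so p-values reflect the spread among the 4 samples, part or all of which may be technical.

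Glycolysis splits glucose into pyruvate; an activated T cell raises its rate and turns much of the pyruvate into lactate, which leaves through monocarboxylate transporters, whereas a resting T cell burns pyruvate in its mitochondria. Most glycolytic enzymes are induced by Myc and mTORC1 signalling as a T cell enters growth, and most are also targets of HIF-1, the factor that accumulates when oxygen is low or when the T cell receptor is engaged. HIF-1 with its partner ARNT binds the core letters ACGTG or GCGTG; besides the enzymes it induces genes of mitophagy (Bnip3, Bnip3l), angiogenesis (Vegfa), oxygen sensing (Egln3), collagen hydroxylation (P4ha1), lipid storage (Hilpda) and the block of pyruvate entry to mitochondria (Pdk1).

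The promoters of 4 of these genes show how far the HIF core letters differ among members that the results turn on: Eno3, Slc16a3 and Ldha, higher in the sgArid1a group, and Pdk1, lower in it. Each window runs from 250 bases before to 50 bases after the RefSeq start, on the plus strand of GRCm38.p6 (RefSeq sequences), with every ACGTG and GCGTG, on either strand, in capitals. The windows are chr11:70656926-70657225 (Eno3), chr11:120948817-120949116 (Slc16a3), chr7:46845554-46845853 (Ldha, the first of its 2 starts) and chr2:71872974-71873273 (Pdk1, the first of its 2 starts).
Eno3: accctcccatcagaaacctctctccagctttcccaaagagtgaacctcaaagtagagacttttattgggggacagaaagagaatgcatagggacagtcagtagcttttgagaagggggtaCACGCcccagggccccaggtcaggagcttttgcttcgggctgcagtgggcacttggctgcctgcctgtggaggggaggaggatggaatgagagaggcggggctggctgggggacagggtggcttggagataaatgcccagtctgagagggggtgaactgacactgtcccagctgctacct
Slc16a3: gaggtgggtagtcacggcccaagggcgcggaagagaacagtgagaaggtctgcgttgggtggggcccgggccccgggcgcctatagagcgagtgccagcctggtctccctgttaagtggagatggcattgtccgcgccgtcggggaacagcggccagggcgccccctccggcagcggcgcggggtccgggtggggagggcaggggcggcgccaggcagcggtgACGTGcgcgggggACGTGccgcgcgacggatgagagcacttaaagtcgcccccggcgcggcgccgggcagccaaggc
Ldha: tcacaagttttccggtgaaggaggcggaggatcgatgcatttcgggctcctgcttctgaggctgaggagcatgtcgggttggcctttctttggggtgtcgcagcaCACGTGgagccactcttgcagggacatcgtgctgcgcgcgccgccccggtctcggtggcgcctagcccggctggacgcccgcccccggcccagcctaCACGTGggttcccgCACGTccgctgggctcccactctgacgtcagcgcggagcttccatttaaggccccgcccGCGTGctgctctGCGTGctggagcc
Pdk1: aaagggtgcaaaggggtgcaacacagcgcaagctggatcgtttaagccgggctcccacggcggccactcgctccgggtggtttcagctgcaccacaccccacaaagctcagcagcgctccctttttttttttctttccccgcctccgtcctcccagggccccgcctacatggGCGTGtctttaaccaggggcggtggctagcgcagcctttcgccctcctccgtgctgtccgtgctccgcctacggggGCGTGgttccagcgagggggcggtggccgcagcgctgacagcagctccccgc
The Ldha window held 7 matches, 4 of them from a pair of CACGTG palindromes, which read ACGTG on both strands and are also the E-box that Myc binds. Slc16a3 held 2 ACGTG, Pdk1 held 2 GCGTG and no ACGTG, and Eno3 held 1 GCGTG on the minus strand. Promoters were found for 29 of the 32 members. Either core was in 82.8% of the 29 windows of 20 glycolysis genes and in 78.6% of the 14 windows of 9 hypoxia targets, against 43.8% of all 32851 windows; ACGTG alone was in 51.7%, 64.3% and 19.6% of the same sets. A match describes the letters of a window and is no evidence of binding.

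After filtering, 38259 T cells remained, 10695 and 12771 in the sgArid1a libraries and 7636 and 7157 in the sgScr libraries, with 39285383 and 81447081 UMIs in sgArid1a against 35642152 and 32201336 in sgScr. The median T cell held 2407 and 4025 UMIs in the sgArid1a libraries, against 3750 and 3597 in the sgScr libraries, and pairs of libraries shared 78 to 231 cell barcodes. Arid1a stood at 74.1 and 72.6 CPM (UMIs per 1000000) in the sgArid1a libraries and at 85.2 and 93.6 CPM in the sgScr libraries (log2 -0.26 ± 0.06 (SE), edgeR adjusted p = 0.00425; without sgScr replicate 2 it was -0.22 and not called, adjusted p = 0.0954). The CD8+ T cell label was borne out by Cd3e, at 874 and 947 CPM in sgArid1a against 875 and 878 in sgScr, and Cd8a, at 658 and 702 CPM in sgArid1a against 525 and 549 in sgScr. Of markers of other cells, all 7 melanoma markers were detected, at a summed 1.76 and 2.07 CPM in the sgArid1a libraries against 2.58 and 2.33 CPM in the sgScr libraries, all 9 macrophage markers summed to 168 and 174 CPM in sgArid1a against 123 and 124 in sgScr, and 3 of 5 neutrophil markers were at 0. The 7 markers of dendritic cells and MHC class II summed to 107 and 105 CPM in sgArid1a against 40.6 and 52.5 CPM in sgScr. Cells with a marker of another cell type were 54.3 and 70.3% of sgArid1a T cells and 62.6 and 61.4% of sgScr T cells. Any UMI of a melanoma, macrophage, dendritic cell, MHC class II or B cell marker counted, so leaving these cells out removed most T cells. The share was higher in libraries with more UMIs in the median T cell. What lost calls owe to this removal was not tested. The 5 markers of CD4 and regulatory T cells, all detected, summed to 147 and 136 CPM in sgArid1a against 75.7 and 89.5 CPM in sgScr. With cells that held a marker of another cell type left out, 10 glycolysis genes were higher and 1 lower, and 1 hypoxia target was higher and 2 were lower, where all T cells gave 14, 0, 3 and 5. Calls over all genes fell as well. In that setting 1514 of 11030 tested genes were higher and 1093 lower, against 3579 and 3377 of 12792 with all T cells.

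Over all T cells, RNA of at least 1 gene for each step from aldolase to lactate export rose in the sgArid1a group by edgeR. For the step with Gapdh as its only member, DESeq2 did not call the rise. Genes of the entry steps and the hypoxia targets did not move as one. Of 21 glycolysis genes, 14 were higher at an edgeR adjusted p under 0.05 and 0 were lower; 7 were not called. At the same threshold 28% of 12792 tested genes were higher and 26.4% were lower, and 54.4% were called in either direction, so a large part of all genes moved each way. The median log2 fold change of the glycolysis genes was 0.48, against -0.02 over all genes tested. Of the 11 hypoxia targets, 3 were higher, 5 were lower and 3 were not called, with a median of -0.20. In sums over all cells, a change in the number of cells of a type and a change in the RNA per cell cannot be told apart.

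**Figure D1:**
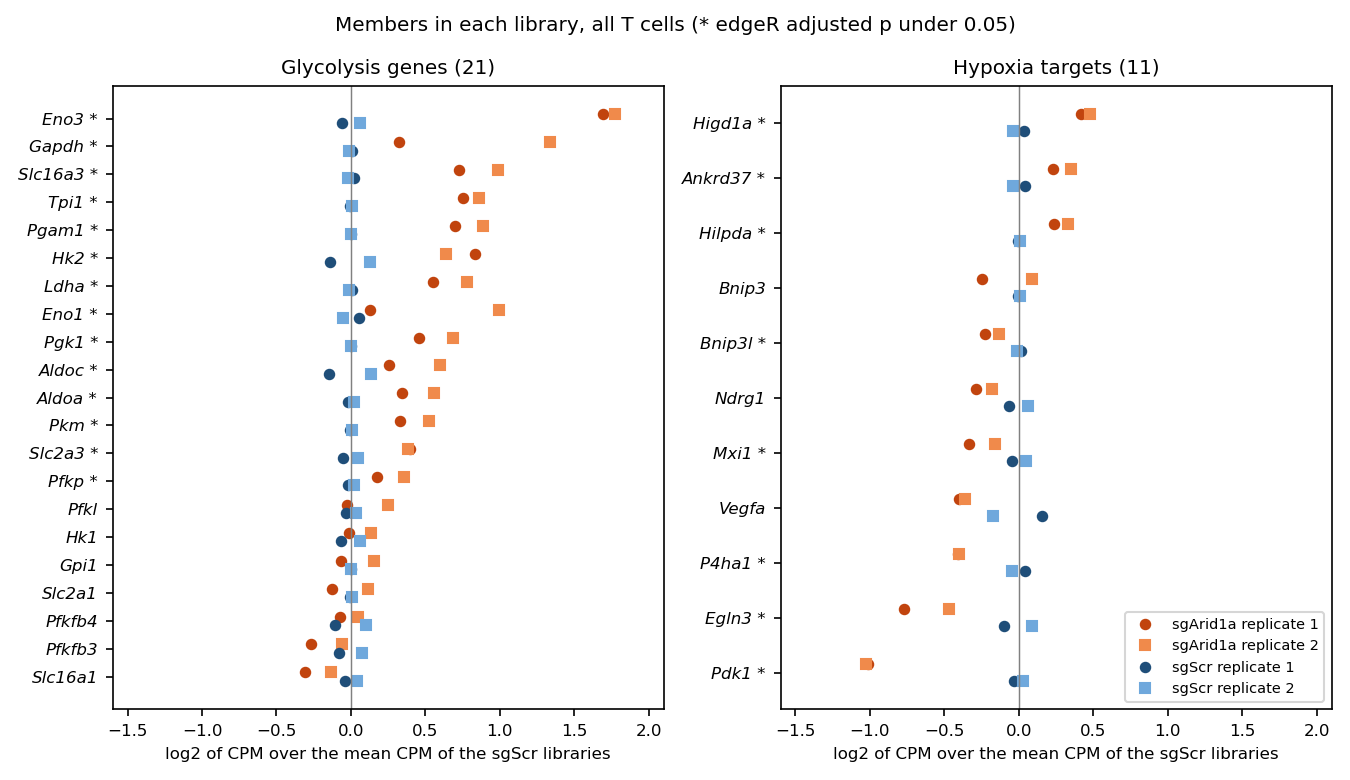
Level of each of the 32 genes in each library, as log2 of CPM over the mean CPM of the 2 sgScr libraries; sgArid1a libraries are drawn beside sgScr libraries, glycolysis genes and hypoxia targets are separated, and a star marks an edgeR adjusted p under 0.05. Eno3 lies farthest to the higher side and Pdk1 farthest to the lower side, and the 2 sgArid1a libraries lie apart for Gapdh and Eno1.

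Of the 2 glucose transporters, RNA of 1 rose over all T cells. Slc2a3, the high-affinity transporter GLUT3, was read at 28.8 and 28.6 CPM in the sgArid1a libraries and at 21.2 and 22.7 CPM in the sgScr libraries, without overlap (log2 0.42 ± 0.07, edgeR adjusted p = 0.000193). Without cells that held markers of other cell types, a setting that leaves out most T cells, this rise was gone (log2 -0.0038). Slc2a1, the transporter GLUT1 of activated T cells, stood at 25.5 and 30.01 CPM in sgArid1a against 27.6 and 27.9 CPM in sgScr, so the groups overlapped (log2 0.03 ± 0.07, edgeR adjusted p = 0.727).

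The first, ATP-consuming steps held most of the members that were not called. Hk1, the hexokinase of resting cells, stood at 42.5 and 47.1 CPM in the sgArid1a libraries and 41.0 and 44.8 CPM in the sgScr libraries, an overlap with an edgeR adjusted p of 0.230. Hk2, the inducible hexokinase, averaged 5.36 ± 0.516 CPM in the sgArid1a group and 3.21 ± 0.418 CPM in the sgScr group (SD, n = 2 each) and rose (log2 0.75 ± 0.14, edgeR adjusted p = 0.000627), though not without the cells that held markers of other cell types. Gpi1, the glucose phosphate isomerase, stood at 447 and 523 CPM in sgArid1a against 469 and 469 CPM in sgScr (edgeR adjusted p = 0.380). Of the phosphofructokinases, the committed step, the platelet-type Pfkp rose, with 106 and 121 CPM in the sgArid1a libraries against 92.9 and 95.7 CPM in the sgScr libraries (log2 0.30 ± 0.06, edgeR adjusted p = 0.0012). The liver-type Pfkl overlapped, at 47.3 and 57.3 CPM in sgArid1a against 47.1 and 49.3 CPM in sgScr (edgeR adjusted p = 0.0949). Pfkfb3 and Pfkfb4, whose product fructose 2,6-bisphosphate activates phosphofructokinase, were not called either: Pfkfb3 ranged over 9.65 to 11.1 CPM in the sgArid1a libraries and 10.998 to 12.2 CPM in the sgScr libraries, and Pfkfb4 lay at 1.29 to 1.49 CPM in all 4 libraries.

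From aldolase on, every step had at least 1 member that rose by edgeR. Gapdh, the only member for its step, was not called by DESeq2, and the size of its rise rested on sgArid1a replicate 2. Aldoa, the muscle-type aldolase, reached 949 and 1097 CPM in the sgArid1a libraries, against 737 and 757 CPM in the sgScr libraries (log2 0.48 ± 0.07, edgeR adjusted p = 9.28e-05). Tpi1, the triose phosphate isomerase, reached 474 and 512 CPM in sgArid1a against 281 and 283 CPM in sgScr (log2 0.83 ± 0.06, edgeR adjusted p = 2.63e-07). Both genes were higher in each sgArid1a library than in either sgScr library. Aldoc, the brain-type aldolase, averaged 6.73 ± 1.13 CPM in the sgArid1a group against 4.98 ± 0.691 CPM in the sgScr group (SD, n = 2 each) and rose (edgeR adjusted p = 0.00595); its call was lost without sgArid1a replicate 2, without sgScr replicate 1, without Trbv13-1 and Trbv20 cells and without cells with markers of other cell types.

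Pgk1, the phosphoglycerate kinase that makes the first ATP of the pathway, stood at 359 and 421 CPM in the sgArid1a libraries and at 261 and 262 CPM in the sgScr libraries (log2 0.60 ± 0.07, edgeR adjusted p = 9.21e-06). Pgam1, the phosphoglycerate mutase, stood at 315 and 360 CPM in sgArid1a against 195 and 195 CPM in sgScr (log2 0.82 ± 0.07, edgeR adjusted p = 3.99e-07). Pkm, the pyruvate kinase of most tissues, stood at 698.5 and 800.5 CPM in sgArid1a against 554.5 and 559 CPM in sgScr (log2 0.46 ± 0.07, edgeR adjusted p = 0.000107). In these 3 genes the sgScr libraries differed little and both sgArid1a libraries lay above them.

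The steepest rise among the 32 members was in an isozyme best known from muscle. Eno3 (ENSMUSG00000060600), on chromosome 11 at 70657202 to 70662513 of GRCm38, encodes beta-enolase, the enolase of skeletal muscle. It was read at 77.5 and 81.7 CPM in the sgArid1a libraries and at 22.95 and 24.91 CPM in the sgScr libraries (log2 1.76 ± 0.06, edgeR adjusted p = 1.44e-09). The libraries of each group lay close together and the groups far apart. Without T cells carrying Trbv13-1 or Trbv20, 2 receptor segments held by 15.3 and 16.8% of sgArid1a T cells against 8.09 and 8.03% of sgScr T cells, the log2 fold change was 1.16 and still called (edgeR adjusted p = 3.65e-09).

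RNA of the lactate dehydrogenase Ldha and of 1 of the 2 lactate transporters rose. Ldha, which turns pyruvate into lactate, was read at 1191 and 1399 CPM in the sgArid1a libraries and at 819 and 808 CPM in the sgScr libraries (log2 0.70 ± 0.08, edgeR adjusted p = 6.05e-06). Slc16a3, the lactate exporter MCT4, was read at 28.3 and 33.9 CPM in sgArid1a against 17.3 and 16.9 CPM in sgScr (log2 0.90 ± 0.08, edgeR adjusted p = 9.67e-07). Its relative Slc16a1, the transporter MCT1, lay at 7.03 to 7.93 CPM in the sgArid1a libraries and 8.47 to 8.94 CPM in the sgScr libraries; it was the 1 glycolysis gene whose groups were apart in the lower direction, and it was not called (edgeR adjusted p = 0.119). In all, 14 glycolysis genes were apart in the higher direction, 1 in the lower, and 6 overlapped; 76.1% of all tested genes had groups that did not overlap.

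Gapdh and Eno1 were called, but the size of their rise rested on 1 library. Gapdh, the glyceraldehyde phosphate dehydrogenase, stood at 1005 and 2030 CPM in the sgArid1a libraries against 809 and 798 CPM in the sgScr libraries (log2 0.94 ± 0.20, edgeR adjusted p = 0.0013). Eno1, the enolase of most cells, stood at 287 and 523 CPM in sgArid1a against 272 and 252 CPM in sgScr (log2 0.65 ± 0.17, edgeR adjusted p = 0.00555). In both, sgArid1a replicate 2 was far above replicate 1. Between these replicates Gapdh differed 2.02-fold and Eno1 1.82-fold, ranks 1 and 4 among 5192 genes of at least 20 CPM, while 95% of those genes lay between -0.20 and 0.30 on the log2 scale. The same pair differed 0.987-fold for Gapdh and 0.927-fold for Eno1 between the sgScr libraries. The gap was alike in all 9 states with enough counts, at 1.89- to 2.17-fold for Gapdh and 1.71- to 1.97-fold for Eno1.

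Without sgArid1a replicate 2 the log2 fold change was 0.38 for Gapdh and 0.19 for Eno1, and DESeq2 did not call either (adjusted p = 0.0811 for Gapdh and 0.175 for Eno1); Eno1 was also not called without cells that held markers of other cell types. Reads of both genes can match near-identical copies: the genome holds 73 other loci at 95% identity or more to Gapdh over at least 500 bases and 3 to Eno1. For Gapdh, 3 of these loci were matched to genes in the matrix (Gm10358, Gm3839 and Vmn2r60), whose levels were not compared. The only such copy of Eno1 in the matrix, Eno1b, stood at 40.6 and 51.6 CPM in the sgArid1a libraries and 40.5 and 37.5 CPM in the sgScr libraries, so its sgArid1a replicates were apart by less than those of Eno1. The part of the copies in the gap was not tested. Without Gapdh and Eno1 the other 19 glycolysis genes summed to 4819 and 5544 CPM in the sgArid1a libraries against 3616 and 3645 CPM in the sgScr libraries.

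The hypoxia targets moved in both directions, and the largest change was a fall. Pdk1 (ENSMUSG00000006494, chromosome 2, 71873224 to 71903858, GRCm38), the kinase that shuts pyruvate dehydrogenase, was read at 22.0 and 21.8 CPM in the sgArid1a libraries and at 43.6 and 45.4 CPM in the sgScr libraries (log2 -0.996 ± 0.06, edgeR adjusted p = 6.92e-08). P4ha1, a subunit of collagen prolyl hydroxylase, was read at 24.2 and 24.2 CPM in sgArid1a against 33.05 and 31.02 CPM in sgScr (log2 -0.38 ± 0.07, edgeR adjusted p = 0.000457). Neither gene overlapped between the groups, and both were called under all 16 alternatives. Bnip3l, a mitophagy receptor, stood at 166 and 177 CPM in sgArid1a against 196 and 192 CPM in sgScr; its call (log2 -0.15 ± 0.06, edgeR adjusted p = 0.0458) held under 4 of 16 alternatives and was lost without either sgScr library.

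Among hypoxia targets of lower level, Egln3, the prolyl hydroxylase that marks HIF for decay and is itself induced by HIF, averaged 2.67 ± 0.392 CPM in the sgArid1a group and 4.08 ± 0.376 CPM in the sgScr group (SD, n = 2 each) and fell (log2 -0.56 ± 0.14, edgeR adjusted p = 0.00531), a call lost without cells that held markers of other cell types. Mxi1, an antagonist of Myc, averaged 17.1 ± 1.49 CPM in sgArid1a against 20.3 ± 0.955 CPM in sgScr (SD, n = 2 each) and fell by 0.21 on the log2 scale (edgeR adjusted p = 0.0299), a call held under 10 of the 15 alternatives that tested it and lost without either sgScr library. Bnip3, Vegfa and Ndrg1 were not called: Bnip3 lay at 8.91 to 11.2 CPM over the 4 libraries, Vegfa at 0.611 to 0.898 CPM and Ndrg1, a stress-induced gene, at 4.66 to 5.93 CPM.

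3 hypoxia targets rose. Higd1a, a small protein of the mitochondrial respiratory chain, was read at 202 and 211 CPM in the sgArid1a libraries and at 155 and 147 CPM in the sgScr libraries (log2 0.48 ± 0.06, edgeR adjusted p = 2.86e-05). Hilpda, an inhibitor of triglyceride breakdown at lipid droplets, was read at 34.0 and 36.3 CPM in sgArid1a against 28.8 and 29.0 CPM in sgScr (log2 0.31 ± 0.06, edgeR adjusted p = 0.000872). Ankrd37, an ankyrin repeat protein, was read at 23.3 and 25.4 CPM in sgArid1a against 20.45 and 19.35 CPM in sgScr (log2 0.32 ± 0.07, edgeR adjusted p = 0.00214). All 3 were higher in both sgArid1a libraries, and Higd1a alone of the 3 was called under all 16 alternatives; Ankrd37 was not called without sgScr replicate 2, and neither Ankrd37 nor Hilpda without Trbv13-1 and Trbv20 cells. Higd1a and Pdk1, both HIF targets, therefore moved in opposite directions over the same cells. Whether the counting used strand is not stated. Any part of reads from a gene on the opposite strand (Hk1os beside Hk1, Spsb2 beside Tpi1) was not tested.

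The members were next read across cell states. T cells were clustered without the 32 genes and the other pathway genes, and states were named from marker genes. Cycling-like cells (led by Top2a, Cdk1 and Mki67) were 7.98 and 8.50% of T cells in the sgArid1a libraries against 2.53 and 2.63% in the sgScr libraries. Exhausted-like cells (led by Gzmd, Gzme and Gzmc, with Havcr2) were 12.8 and 13.1% in sgArid1a against 5.21 and 5.57% in sgScr. Naive/central memory-like cells (led by Igfbp4 and Ccr9) were 19.1 and 23.1% in sgArid1a against 57.3 and 56.0% in sgScr. Larger cells weigh more in sums: cycling-like cells gave 25.2 and 26.5% of UMIs in the sgArid1a libraries and 10.3 and 10.2% in the sgScr libraries, and naive/central memory-like cells 10.3 and 11.9% in sgArid1a against 46.6 and 44.9% in sgScr. The other states were memory-like, early activated-like, interferon-stimulated-like and Ly49 innate-like cells and the unnamed clusters 2, 8 and 11. Differences between states are given without tests, since the states were found from genes of the same cells.

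Glycolysis was graded over these states, and the grade was steep. The 21 genes summed to 9296 and 11843 CPM in cycling-like cells of the sgArid1a libraries and to 10364 and 9279 CPM in those of the sgScr libraries. Exhausted-like cells held 8857 and 11270 CPM in sgArid1a against 9924 and 9995 CPM in sgScr, and early activated-like cells 7056 and 9092 CPM in sgArid1a against 7495 and 8187 CPM in sgScr. Cycling-like and exhausted-like cells thus overlapped each other. Naive/central memory-like cells held 2801 and 3619 CPM in the sgArid1a libraries and 2719 and 2700 CPM in the sgScr libraries, the lowest of the 10 states in each library. Between these, memory-like cells held 3429 and 4496 CPM in sgArid1a against 3777 and 3810 CPM in sgScr, and cluster 8 (led by Ramp3, Fosl2 and Tnfaip3) 4037 and 5641 CPM in sgArid1a against 4983 and 4850 CPM in sgScr. Without Gapdh and Eno1, cycling-like cells held 7263 and 7997 CPM in sgArid1a against 7769 and 7057 CPM in sgScr. Naive/central memory-like cells then held 2319 and 2653 CPM in sgArid1a against 2174 and 2163 CPM in sgScr. In sgScr replicate 1, Ly49 innate-like cells were then lower, at 2169 CPM.

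**Figure D2:**
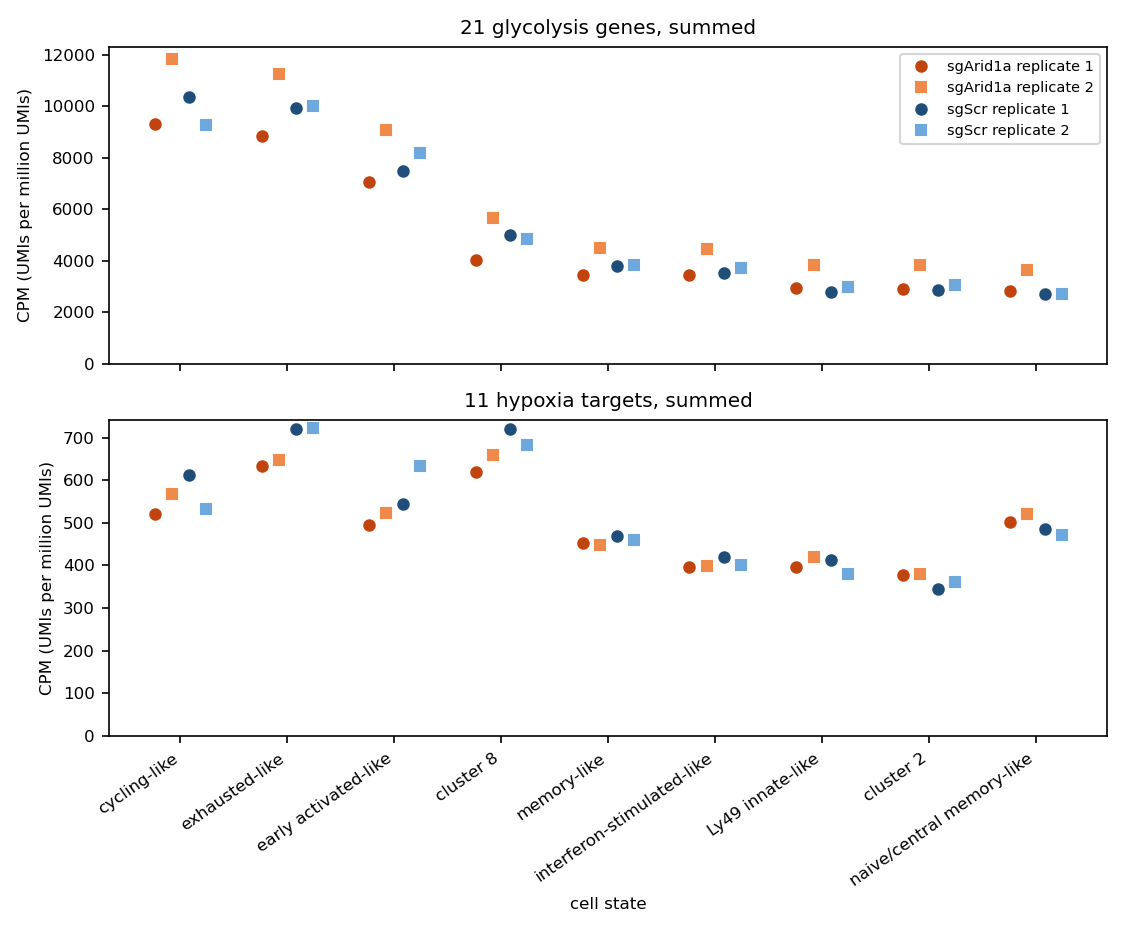
Summed CPM of the 21 glycolysis genes and of the 11 hypoxia targets in each cell state, 1 point per library, sgArid1a beside sgScr. For glycolysis the cycling-like, exhausted-like and early activated-like cells sit at 7056 CPM or above in all 4 libraries, while within a state the sgArid1a and sgScr libraries mostly overlap; the hypoxia sum spans a narrower range.

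The members differed widely in how steeply they followed the states. Relative to naive/central memory-like cells of the same library, Eno3 was 20.2-fold higher in cycling-like cells (median of 4 libraries, range 16.5 to 26.4) and 21.2-fold higher in exhausted-like cells (18.2 to 26.2). Slc16a3 was 21.4-fold higher in cycling-like cells (16.05 to 30.8), and Hk2, from few counts in naive/central memory-like cells, 11.1-fold (7.97 to 14.5). Tpi1 followed at 6.51-fold, Gapdh at 4.97-fold, Pgam1 at 4.51-fold, Pgk1 at 3.95-fold and Ldha at 3.54-fold. At the flat end, Gpi1 was 1.26-fold and Hk1 1.66-fold higher, and Pfkfb3 was level at 0.994-fold. The 3 members with the steepest grade in cycling-like cells, Eno3, Slc16a3 and Hk2, are the inducible or tissue-restricted forms beside the broadly expressed Eno1 (2.59-fold), Slc16a1 and Hk1. Over the list, 18 of 21 glycolysis genes in cycling-like cells, 19 in exhausted-like cells and 20 in early activated-like cells were above naive/central memory-like cells in 4 of 4 libraries.

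A state with raised RNA of glucose transporters had little Eno3. In cluster 8, Eno3 was read at 6.55 and 2.55 CPM in the sgArid1a libraries and 0 and 1.22 CPM in the sgScr libraries, on 4 and 4 UMIs in sgArid1a against 0 and 1 in sgScr. In sgArid1a replicate 1 this was level with naive/central memory-like cells of the same library (0.985-fold). Cluster 8 had Slc2a1 2.43-fold, Slc2a3 1.98-fold and Pfkp 2.16-fold over naive/central memory-like cells, all above in 4 of 4 libraries. Aldoc was 6.62-fold there (range 3.54 to 12.4), on 4 and 12 UMIs in sgArid1a against 9 and 7 in sgScr. Slc2a3 was also high in cluster 11 (led by Kit, Penk and Tnfsf11), at 177 and 149 CPM in sgArid1a against 247 and 257 CPM in sgScr, but on 20 and 22 UMIs in the sgArid1a libraries and 27 and 62 in the sgScr libraries, from 55 and 59 cells in sgArid1a against 68 and 124 in sgScr.

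The hypoxia targets did not share 1 order over the states. Exhausted-like cells had 7 of 11 above and 2 below naive/central memory-like cells in 4 of 4 libraries, cycling-like cells 5 above and 3 below, and memory-like cells 1 above and 7 below. Pdk1 ran against glycolysis: it was read at 11.2 and 13.7 CPM in cycling-like cells of the sgArid1a libraries and 13.9 and 16.2 CPM in those of the sgScr libraries, and at 54.7 and 45.7 CPM in sgArid1a against 65.6 and 67.1 CPM in sgScr in naive/central memory-like cells. Its median fold over naive/central memory-like cells was 0.227 in cycling-like and 0.286 in exhausted-like cells. P4ha1 was also below naive/central memory-like cells, at 0.545-fold in cycling-like and 0.657-fold in exhausted-like cells, but its order was another one, with 0.319-fold in Ly49 innate-like and 0.463-fold in memory-like cells. Higd1a, by contrast, was 2.55-fold higher in both cycling-like and exhausted-like cells, and Egln3 was 2.45-fold higher in cycling-like cells and 2.46-fold higher in exhausted-like cells. Mxi1 and Hilpda were above naive/central memory-like cells in exhausted-like cells and cluster 8, Mxi1 at 1.88-fold and 2.33-fold and Hilpda at 2.07-fold and 2.08-fold; in cluster 11, with few cells, Mxi1 was at 3.75-fold (range 2.06 to 6.08).

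**Figure D3:**
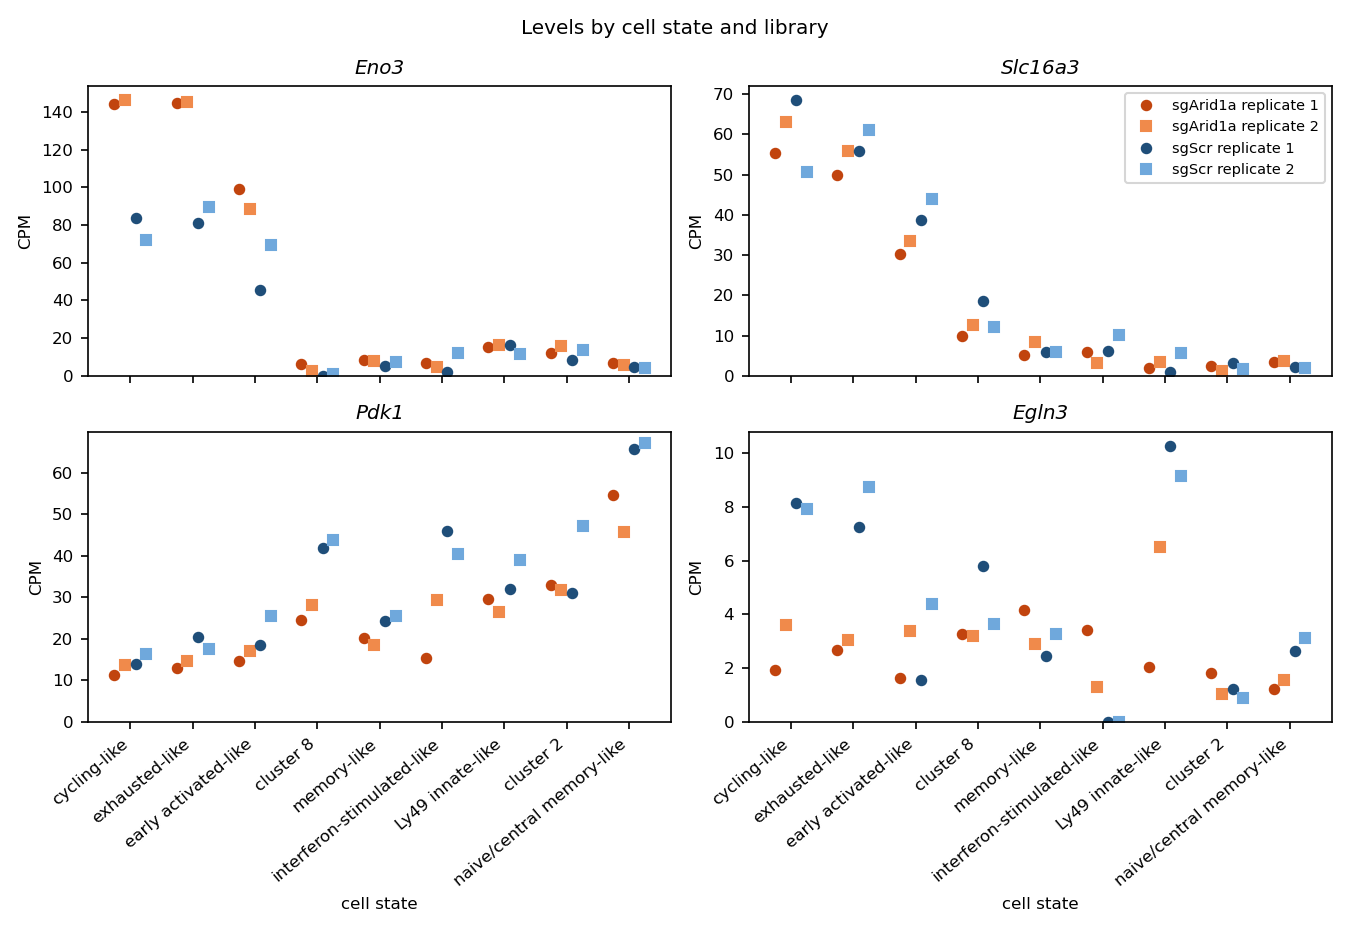
CPM of Eno3, Slc16a3, Pdk1 and Egln3 in each cell state, 1 point per library, sgArid1a beside sgScr. Eno3 is higher in both sgArid1a libraries in cycling-like, exhausted-like and early activated-like cells, Slc16a3 overlaps between the groups in cycling-like cells, Pdk1 is high in naive/central memory-like cells, and Egln3 is lower in both sgArid1a libraries in cycling-like and exhausted-like cells.

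To set the groups side by side with the same states, the mean profile of each of 12 clusters was weighted by 1 common mix in every library. On the log2(CPM + 1) scale, which understates changes of low genes, the median ratio of sgArid1a to sgScr over the 21 glycolysis genes was -0.0061, against 0.43 with each library's own mix. Over 11016 genes of at least 1 CPM the medians were -0.078 at the common mix and -0.038 at the own mix. For the summed glycolysis CPM the log2 ratios were 0.11 and 0.60. This sum includes Gapdh and Eno1, the size of whose rise over all T cells rested on sgArid1a replicate 2. Individually, 16 of 21 glycolysis genes and 8 of 11 hypoxia targets had a log2 ratio of smaller absolute size at the common mix. The same count was not made over all genes. This comparison has no test, because 2 against 2 libraries cannot go below p = 0.333 in an exact permutation test.

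Members behaved unequally under the common mix. Slc16a3 went to a log2 ratio of -0.0061 (12.4 and 14.2 CPM in the sgArid1a libraries against 13.5 and 13.3 CPM in the sgScr libraries), Aldoa to 0.01, Pgk1 to 0.04 and Tpi1 to 0.08. Eno3 kept a ratio of 0.69, with 30.6 and 30.4 CPM in the sgArid1a libraries against 17.6 and 19.5 CPM in the sgScr libraries, and these did not overlap. Pgam1 kept 0.23 and Ldha 0.20. Of the 21 glycolysis genes, 10 were above 0 and 11 below at the common mix, the lowest being Slc16a1 at -0.35 (6.19 and 6.67 CPM in sgArid1a against 7.98 and 8.95 CPM in sgScr) and the next Slc2a1 at -0.20. Of the hypoxia targets, Pdk1 kept -0.40, with 34.8 and 31.8 CPM in sgArid1a against 43.2 and 45.5 CPM in sgScr, and Egln3 kept -0.51, while P4ha1 went to -0.085 and Higd1a to 0.10.

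**Figure D4:**
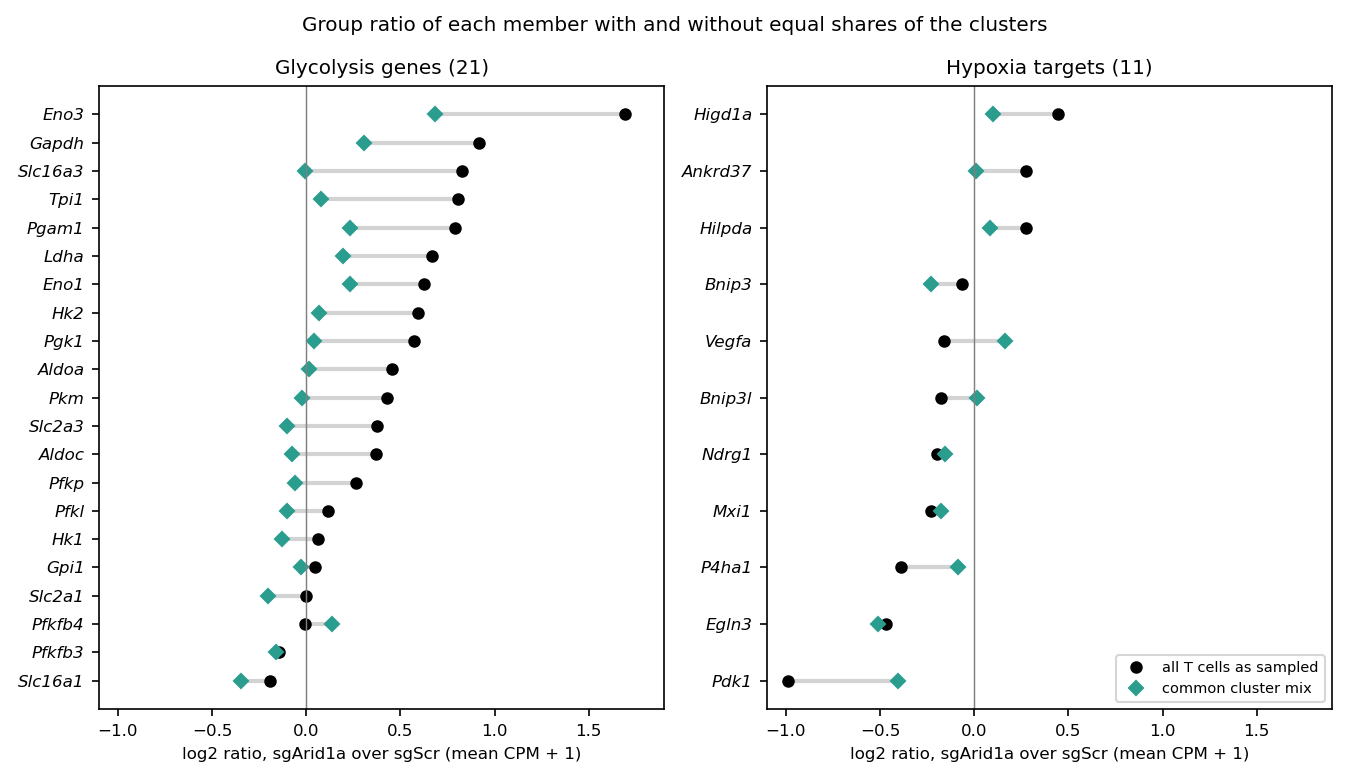
Log2 ratio of sgArid1a to sgScr (mean CPM + 1) for each of the 32 genes, with each library's own mix of cells (black circles) and with 1 common cluster mix (teal diamonds). Most diamonds lie nearer 0 than their circles; Eno3 at 0.69 and, on the lower side, Egln3 at -0.51 and Pdk1 at -0.40 stay apart from 0.

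Tests within states gave far fewer calls than the test over all T cells. In cycling-like cells 1 of 20 tested glycolysis genes was higher and 0 were lower, where 2.57% of all genes were higher and 2.17% lower; 1 of 10 hypoxia targets was lower. In exhausted-like cells 2 of 20 glycolysis genes were higher and 1 lower, and 3 of 11 hypoxia targets were lower, with 7.22% of all genes higher and 5.92% lower. In early activated-like cells 1 of 20 glycolysis genes was higher (all genes, 2.22% higher and 1.14% lower) and 0 of 9 hypoxia targets were called. In memory-like cells, cluster 8 and interferon-stimulated-like cells edgeR called 0 members (all genes called in either direction, 2.72%, 0.869% and 0.386%). Summed over the 10 states there were 19 higher and 7 lower calls. A gene called in several states counts once for each, and no all-gene share was formed for this sum. These counts moved when 1 library was left out: in exhausted-like cells edgeR called 0 members without sgArid1a replicate 1 and 0 without replicate 2, against 5 and 3 without sgScr replicates 1 and 2.

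Eno3 was the member called in all 3 activated states. In cycling-like cells it was read at 144 and 146 CPM in the sgArid1a libraries and at 83.6 and 72.1 CPM in the sgScr libraries (log2 0.96 ± 0.10, edgeR adjusted p = 4.84e-06). In exhausted-like cells it was read at 145 and 145 CPM in sgArid1a against 81.0 and 89.8 CPM in sgScr (log2 0.83 ± 0.09, edgeR adjusted p = 7.25e-08). In early activated-like cells it was read at 99.2 and 88.6 CPM in sgArid1a against 45.7 and 69.3 CPM in sgScr (log2 0.77 ± 0.17, edgeR adjusted p = 0.00145). In none of the 3 states did the groups overlap, and in cycling-like cells Eno3 was called whichever library was left out. Its call in exhausted-like cells was lost without either sgArid1a library, and that in early activated-like cells without sgScr replicate 1. In naive/central memory-like cells Eno3 stood at 6.65 and 5.56 CPM in sgArid1a against 4.45 and 4.36 CPM in sgScr and was not called.

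The members that fell in exhausted-like cells were 1 of the 20 glycolysis genes, Slc2a1, and 3 of the 11 hypoxia targets, Bnip3, Mxi1 and Egln3, where 5.92% of all genes were lower. No hypoxia target was called higher in them, although Hilpda lay apart in the higher direction, at 56.6 and 58.5 CPM in sgArid1a against 44.5 and 54.8 CPM in sgScr (edgeR adjusted p = 0.0881). Slc2a1 was lower, at 33.8 and 37.9 CPM in the sgArid1a libraries and 56.4 and 52.5 CPM in the sgScr libraries (log2 -0.53 ± 0.11, edgeR adjusted p = 0.00146), although over all T cells its groups overlapped. Bnip3, not called over all T cells, was lower too, at 15.01 and 18.4 CPM in sgArid1a against 25.9 and 27.0 CPM in sgScr (log2 -0.57 ± 0.14, edgeR adjusted p = 0.00748), as was Mxi1, at 27.4 and 29.4 CPM in sgArid1a against 40.4 and 46.4 CPM in sgScr (log2 -0.54 ± 0.12, edgeR adjusted p = 0.00229). In each of the 3 both sgArid1a libraries lay below both sgScr libraries. The calls of all 3, and that of Egln3, in exhausted-like cells were lost without either sgArid1a library. Those of Bnip3 and Mxi1 were also lost without sgScr replicate 2. Egln3 fell in exhausted-like cells, at 2.68 and 3.04 CPM in sgArid1a against 7.24 and 8.74 CPM in sgScr (log2 -1.39 ± 0.27, edgeR adjusted p = 0.000792), on 23 and 57 UMIs in the sgArid1a libraries and 28 and 33 in the sgScr libraries. In cycling-like cells it fell as well, at 1.92 and 3.61 CPM in sgArid1a against 8.17 and 7.95 CPM in sgScr (edgeR adjusted p = 0.0136), a call that was lost when any library other than sgArid1a replicate 2 was left out. Pgam1 was the other glycolysis gene that rose in exhausted-like cells, at 420 and 475 CPM in sgArid1a against 397 and 393 CPM in sgScr (edgeR adjusted p = 0.0342). This call of Pgam1 was lost whichever library was left out.

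Naive/central memory-like cells, the state with least glycolysis RNA, had 9 called members, more than any other state with all 4 libraries in the test; without sgScr replicate 1 they had 3 and exhausted-like cells 5. In them 5 of 20 tested glycolysis genes were higher and 1 was lower, and 2 of 11 hypoxia targets were higher and 1 was lower, where 3.97% of all genes were higher and 1.94% lower. Pgam1 was read at 121 and 136 CPM in the sgArid1a libraries and at 95.4 and 95.8 CPM in the sgScr libraries (log2 0.49 ± 0.07, edgeR adjusted p = 0.000156). Ldha was read at 560 and 661 CPM in sgArid1a against 507 and 490 CPM in sgScr (log2 0.35 ± 0.07, edgeR adjusted p = 0.00681). Tpi1 and Pgk1 rose by a similar amount (log2 0.35 and 0.32, edgeR adjusted p = 0.00483 and 0.00964), and Eno1 was the fifth (log2 0.46, edgeR adjusted p = 0.0334), although at 161 and 291 CPM in sgArid1a against 178 and 171 CPM in sgScr its groups overlapped. The transporter Slc16a1 fell, at 5.17 and 5.66 CPM in sgArid1a against 9.93 and 9.13 CPM in sgScr (log2 -0.75 ± 0.18, edgeR adjusted p = 0.0169). Pdk1 fell, at 54.7 and 45.7 CPM in sgArid1a against 65.6 and 67.1 CPM in sgScr (log2 -0.39 ± 0.09, edgeR adjusted p = 0.0106), and Higd1a rose by 0.30 on the log2 scale (edgeR adjusted p = 0.0153), the directions both had over all T cells.

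These calls were uneven within the state and between libraries. Of the 3 clusters that make up the naive/central memory-like cells, cluster 0 had 5 of 19 glycolysis genes higher, cluster 6 had 3 of 17 and cluster 4 (led by Ifngr2, Socs3 and Hspa1a) had 0 of 17, where 1.25%, 0.691% and 1.24% of all genes were higher; Tpi1 in cluster 4 stood at 220 and 247 CPM in the sgArid1a libraries and 234 and 229 CPM in the sgScr libraries, an overlap. The count of 9 called members was 14 without sgArid1a replicate 1, 5 without sgArid1a replicate 2, and 3 without either sgScr library; Pgam1 was called in all 4 cases. Depth per cell differs with the libraries in this state, at a median of 1810 and 3024 UMIs in the sgArid1a libraries against 3536 and 3395 in the sgScr libraries, and its part in the calls was not tested.

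In the remaining states a few glycolysis genes rose and no hypoxia target was called. Ly49 innate-like cells had Pgam1 and Ldha higher (2 of 17; 1.55% of all genes were higher and 0.602% lower), and cluster 2 had Tpi1 and, with overlapping groups, Gapdh higher (2 of 17; 1.43% higher and 0.62% lower). Cluster 11, with the fewest cells, had 4 of 15 higher (4.54% of all genes were higher and 0.938% lower): Gapdh, Tpi1, Pgam1 and Ldha. Ldha there stood at 939 and 990 CPM in the sgArid1a libraries against 302 and 489 CPM in the sgScr libraries (log2 1.36 ± 0.28, edgeR adjusted p = 0.019). Without 1 library, cluster 11 kept 1 to 5 calls, Ly49 innate-like cells 0 to 6 and cluster 2 also 0 to 6.

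The size of the group difference was then compared between cycling-like cells and all other T cells together, with the library as a block. Of 12744 tested genes 14.7% were called by edgeR, and among the members 14 were. In 11 of the 14 the log2 fold change was lower in cycling-like cells: Slc16a3 had a log2 fold change of 0.05 there against 0.84 in other T cells (difference -0.76 ± 0.13, edgeR adjusted p = 9.43e-05), and Eno3 0.96 against 1.70 (difference -0.72 ± 0.11, edgeR adjusted p = 1.68e-05). For Pdk1 the fold change was -0.18 against -0.90 (difference 0.77 ± 0.17, edgeR adjusted p = 0.0015). The other T cells differ between the groups in their mix of states, above all in naive/central memory-like cells, and this cannot be told apart from a change within cells in that contrast. Set against naive/central memory-like cells alone, 2 members were called, Gpi1 (difference -0.23, edgeR adjusted p = 0.0352) and Slc16a1 (difference 1.03, edgeR adjusted p = 0.0167), with 3.07% of 11571 genes called, and the difference of Eno3 had the opposite sign, 0.51, and was not called (edgeR adjusted p = 0.245).

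Averaged over all T cells, glycolysis RNA took a larger share of a cell's UMIs in the sgArid1a libraries, which also differ in their mix of states. The mean share of a cell's UMIs from the 21 genes was 0.428 and 0.566% in the sgArid1a libraries and 0.366 and 0.366% in the sgScr libraries. With each cell thinned to 2000 UMIs it was 0.485 and 0.572% in sgArid1a against 0.362 and 0.365% in sgScr, over 6769 and 11723 cells in sgArid1a against 7089 and 6506 in sgScr, the shallower cells being left out. Within 2 states, given as examples, the thinned shares overlapped between the groups. They were 0.813 and 1.04% in sgArid1a against 0.898 and 0.906% in sgScr in exhausted-like cells. In naive/central memory-like cells they were 0.254 and 0.363% in sgArid1a against 0.279 and 0.274% in sgScr. There, thinning kept 786 of 2043 and 2596 of 2950 cells in sgArid1a, against 4136 of 4377 and 3679 of 4007 in sgScr. With all UMIs the naive/central memory-like shares did not overlap, at 0.290 and 0.381% in sgArid1a against 0.2834 and 0.2826% in sgScr. Those of exhausted-like cells overlapped with all UMIs as well. All these glycolysis shares include Gapdh and Eno1. The thinned share of the hypoxia targets was 0.0461 and 0.04999% in the sgArid1a libraries and 0.0509 and 0.0495% in the sgScr libraries, which overlapped.

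Genes beside the members were counted over all T cells, where 3579 of all 12792 tested genes were higher and 3377 were lower. The counts of these short lists are to be read against those shares. All 6 genes of the serine branch, which leaves glycolysis at 3-phosphoglycerate, rose (median log2 0.76); Shmt1, the cytosolic serine hydroxymethyltransferase, stood at 19.8 and 22.2 CPM in the sgArid1a libraries and 9.96 and 9.16 CPM in the sgScr libraries (log2 1.17, edgeR adjusted p = 1.97e-07). Psat1 and the mitochondrial folate enzyme Mthfd2 followed at log2 0.87 and 0.76 (edgeR adjusted p = 7.89e-07 and 3.89e-07). Of 9 genes of the pentose phosphate pathway, 5 rose and 1 fell (median 0.22), led by the transketolase Tkt at log2 0.59, the transaldolase Taldo1 at 0.34 and Pgd at 0.39. Of 14 tested glycolysis isozymes and regulators outside the members, 2 rose and 2 fell, among them Adpgk, the ADP-dependent glucokinase, at log2 -0.40 (edgeR adjusted p = 0.000596), Pfkfb2 at -0.80 and Tigar, a fructose bisphosphatase, at 0.48 (edgeR adjusted p = 0.00552 and 0.0071; Tigar was not called without sgScr replicate 2).

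Of 10 tested genes of pyruvate entry to mitochondria, 3 rose and 1 fell, a share of higher genes near the 28% of all tested genes and a share of lower genes below the 26.4%. Mpc1 and Mpc2, the subunits of the mitochondrial pyruvate carrier, rose by log2 0.57 and 0.34 (edgeR adjusted p = 3.42e-06 and 0.000544). Pdk2, a relative of Pdk1, was read at 5.37 and 5.59 CPM in the sgArid1a libraries and 9.06 and 8.85 CPM in the sgScr libraries, and fell by 0.68 on the log2 scale (edgeR adjusted p = 6.66e-05). The kinases did not move together: Pdk3, named after its values were seen, was read at 31.4 and 34.0 CPM in sgArid1a against 23.7 and 23.5 CPM in sgScr and rose by 0.50 on the log2 scale (edgeR adjusted p = 2.66e-05), while Pdk1 and Pdk2 fell.

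Of 23 other tested hypoxia targets, 11 rose and 5 fell (median log2 0.37), a split unlike the 3 and 5 of the 11 members; the difference between the lists was not tested. Bhlhe40, a transcription factor of activated T cells, stood at 145 and 159 CPM in the sgArid1a libraries and 80.4 and 82.5 CPM in the sgScr libraries (log2 0.93, edgeR adjusted p = 7.01e-08), Tfrc, the transferrin receptor, rose by 1.13 and Fam162a by 0.82 on the log2 scale (edgeR adjusted p = 1.2e-07 and 2.12e-07). Of 14 tested regulators of HIF, 3 rose and 4 fell, near the all-gene shares of 28% and 26.4%; Eloc and Elob, the elongins of the VHL ubiquitin ligase, rose by log2 0.61 and 0.48, and the coactivator Crebbp fell by 0.58 (edgeR adjusted p = 3.72e-06, 6.2e-05 and 5.17e-05). Of 11 genes of mTORC1 and Myc, 4 rose and 1 fell, to be read against the same all-gene shares: the amino acid transporter Slc7a5 rose by log2 0.68, Eif4ebp1 by 0.47 and Myc by 0.28 (edgeR adjusted p = 7.32e-06, 3.41e-05 and 0.00226; Myc was not called without sgScr replicate 1). Cycling markers moved with the group in the same cells, with 12 S phase genes summing to 820 and 863 CPM in the sgArid1a libraries against 432 and 450 CPM in the sgScr libraries, and their part in these pathway genes was not tested.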

How the data were processed

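The deposited values are whole-number UMI counts per gene and cell, 1 matrix per library, made by the authors with Cell Ranger 6.0.1 per the file headers (mm10, Seurat and a different release, Cell Ranger 3.0.2, appear in the submitters' processing notes, a mismatch left as it is). The deposited counts were not normalized. Doublet removal is not stated, and no caller was run; cells with 2 Trbv segments (6.73 and 13.2% of sgArid1a and 11.1 and 10.6% of sgScr T cells) were left out as an alternative.

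Of 39473 barcodes, 38316 passed a minimum of 500 genes and a maximum of 10% mitochondrial UMIs, and a cluster of B cell and MHC class II genes was left out. The other T cells were clustered (scanpy 1.11.5, 2000 variable genes, 30 components, 15 neighbours, Leiden 0.8 with leidenalg 0.10.2, seed 1) without the 32 members and the pathway genes. A state was named where its marker genes were raised at least 1.5-fold; other clusters kept numbers. UMI counts were summed per library, over all T cells or within a state of at least 50 cells per library, and tested with edgeR 4.0.16 (TMM, filterByExpr, quasi-likelihood, Benjamini-Hochberg over all genes tested, adjusted p under 0.05) in R 4.3.3. DESeq2 1.42.0 was an alternative. SEs are edgeR's. The procedure was tested on simulated counts.

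The members and lists were chosen with earlier results of these data known. Members with a mean of at least 20 CPM are given in every library, other called members by level and fold, and the 3 genes with the smallest p from each pathway list; genes named within states were chosen after their values were seen. Same-numbered replicates are not stated to be pairs. Coordinates are from GENCODE M21 on GRCm38, and copies were found with blastn 2.17.0. The summed level of B cell markers is not reported here.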

Additional observations from a re-analysis of the deposited data

Results flagged for a closer look

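For 14 members the log2 difference between the groups was not the same in cycling-like cells as in all other T cells, by an edgeR test. Of all 12744 genes tested, 568 had a higher and 1307 a lower log2 fold change in cycling-like cells. The other T cells differ between the groups in their mix of states, which cannot be told apart here from a change within cells. The log2 fold change was lower in cycling-like cells for 10 glycolysis genes, by -0.28 for Pfkp, -0.39 for Aldoa, -0.49 for Gapdh, -0.48 for Tpi1, -0.42 for Pgk1, -0.44 for Pgam1, -0.72 for Eno3, -0.39 for Pkm, -0.38 for Ldha and -0.76 for Slc16a3, and by -0.33 for the hypoxia target Higd1a. It was higher there by 0.65 for Slc16a1, 0.41 for P4ha1 and 0.77 for Pdk1. Of these 14 genes, only Slc16a1 was also called against naive/central memory-like cells alone. In that contrast the difference had the opposite sign for Eno3 (0.51) and P4ha1 (-0.11), and the same sign for the others.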

How the results depend on the processing

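Over all T cells, 12 members were called the same way under all 16 alternatives: Pfkp, Aldoa, Tpi1, Pgk1, Pgam1, Eno3, Pkm, Ldha, Slc16a3, P4ha1, Pdk1 and Higd1a. The 6956 calls over all genes became 3412 among genes of at least 20 CPM and 2607 without cells with markers of other cell types. Of 12792 genes, DESeq2 called 2946 higher and 2433 lower. Without cycling-like cells 3042 of 12502 genes were higher and 2868 lower. Without Trbv13-1 and Trbv20 cells 2607 of 12497 were higher and 2402 lower. The 14 higher glycolysis genes were 12 under DESeq2, 12 at 20 CPM and 10 without cells with markers of other types, and ranged from 13 to 17 with 1 library left out; 1 was lower without cycling-like cells, without cells with 2 Trbv segments, or without cells with markers of other types. The 3 higher hypoxia targets became 1 without Trbv13-1 and Trbv20 cells and 1 without cells with markers of other types. The 5 lower ones became 3 under DESeq2, 3 at 20 CPM, 3 without cycling-like cells, 2 without cells with markers of other types, and 3 to 5 with 1 library left out.

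Same-numbered replicates did not deviate together (correlation -0.11 over 5192 genes). With the replicate number as a block, 14 glycolysis genes were higher and 3 and 4 hypoxia targets were higher and lower; interferon-stimulated-like cells then had 1 called member and Ly49 innate-like cells 4. Crossing the pairing gave 15 higher glycolysis genes and 7432 calls over all genes, against 7055 in the uncrossed block.

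With 1 library left out, which leaves a group with 1 sample, called members ranged from 1 to 3 in cycling-like, 0 to 5 in exhausted-like, 1 to 4 in early activated-like, 0 to 2 in cluster 8, 0 to 2 in interferon-stimulated-like, 0 to 4 in memory-like, 0 to 6 in Ly49 innate-like and cluster 2, 1 to 5 in cluster 11 and 3 to 14 in naive/central memory-like cells. Summed higher calls ranged from 6 to 44 and lower ones from 2 to 5, and 44 was reached without sgArid1a replicate 1. With library totals in place of TMM, cluster 2 had 1 call, naive/central memory-like cells 5, and the summed higher calls were 12. For the within-state counts of this section no share of all genes called was formed. A change in these counts therefore cannot be told apart from a change in calls over all genes. The test against cycling-like cells called 2 members, not 14, with naive/central memory-like cells as the other side. The median of hypoxia targets at the common mix was -0.13 at Leiden resolution 1.2 and ranged from -0.11 to -0.0075 with 1 library left out.

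Directions that turned belonged mostly to values near 0. Over all T cells Slc2a1 was -0.034 among genes of at least 20 CPM, -0.060 without Trbv13-1 and Trbv20 cells, -0.050 without cells with markers of other types, and -0.064 to 0.11 with 1 library left out. Pfkfb4 was -0.091 without cells with 2 Trbv segments, -0.38 without cells with markers of other types and -0.060 to 0.10 with 1 library left out. Slc2a3 was -0.0038 without cells with markers of other types. With 1 library left out, Bnip3 ranged from -0.19 to 0.083 and Gpi1 from -0.0082 to 0.15. Against naive/central memory-like cells the difference was 0.51 for Eno3, -0.19 for Bnip3l, -0.11 for P4ha1 and -0.0077 for Ndrg1. Against all other T cells with 1 library left out, it ranged from -0.37 to 1.23 for Ndrg1, -0.30 to 0.013 for Eno1, -0.52 to 0.094 for Bnip3, -1.89 to 0.49 for Vegfa and -0.65 to 0.65 for Pfkfb4. The cause of these changes was not tested. Low counts limit Egln3, Vegfa, Pfkfb4 and all members in cluster 11.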
